A study of Homo sapiens with 6 samples.

Results

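The data concern 10 genes of the YAP/TEAD pathway and of caveolae in HT-29, a human colon adenocarcinoma line, and in its bortezomib-resistant variants. They are the target genes CCN1, CCN2, ANKRD1 and AMOTL2, the caveolins CAV1 and CAV2, the kinase gene LATS2, the coactivator genes YAP1 and WWTR1, and the transcription factor gene TEAD1. All probe sets whose annotation names 1 of these genes alone were taken, which gave 23 probe sets for the 10 genes, out of 19775 genes on the array. The genes were chosen by their differences in log2 level between the variants on these same arrays, beside their known roles, so those differences are given as descriptions and without a test. The labelling kits were not used in the choice and are tested.

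The series holds 6 Affymetrix arrays of 54675 probe sets, 2 each of wild type, BR100 and BR200 cells. Each variant was hybridised once after labelling 100 ng of RNA with the Express kit and once after labelling 3 ug with the One-Cycle kit. Per the labels, HT-29 cells were kept in bortezomib, a proteasome inhibitor, at doses that climbed from 20 to 300 nM during 7 months. Clones came from 2 limiting dilutions in 100 or 300 nM that took another 4 months. All 6 samples carry that same text, wild type included. The labels give neither the dose at which BR200 was cloned nor whether drug was present at harvest, nor whether both RNA samples of a variant derive from different cultures. BR100 and BR200 each stand for what the labels describe as clonal isolates, so a difference from wild type is that of a clone.

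YAP1 and its paralogue WWTR1, known as TAZ, carry no DNA-binding domain of their own and act in the nucleus through TEAD factors. The Hippo kinases, ending in LATS1 and LATS2, phosphorylate both coactivators and keep them out of the nucleus. CCN1, CCN2, ANKRD1 and AMOTL2 are widely used as readouts of the pathway, and AMOTL2 and LATS2 are also inhibitors of YAP1, so that the pathway holds negative feedback. Caveolins are the membrane proteins that build caveolae, small flask-shaped pits of the plasma membrane.

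Across genes, which are not independent replicates, r was 0.983 to 0.985 between the kits of a variant, 0.986 to 0.987 between BR100 and BR200 within a kit, and 0.891 to 0.904 between wild type and a resistant variant. The ACTB probe sets, whose 3' level over the 5' level reads RNA integrity, were 4.22 (log2) apart in wild type against 3.03 and 3.24 in BR100 and BR200 on Express arrays, and 2.99 against 1.86 and 1.76 on One-Cycle arrays. That gap moved with the variants and was wider on the Express array of each variant. Its part in the differences below, between variants or between kits, was not tested. Of 12 colon epithelial genes, EPCAM, KRT8, KRT18, KRT20 and CDH1 were at log2 13.3 or above on all 6 arrays. KRT8 and KRT18 overlapped with wild type. CDH1 was at 14.03 and 14.17 in wild type against 13.31 to 13.72 in the resistant variants, and KRT20 and EPCAM were also lower there. CDX1, CDX2, CDH17 and GPA33 were near the lowest value on all 6. LGALS4 was at 13.04 to 13.48 in wild type against 6.90 to 7.94 in the resistant variants. VIL1 was at 8.20 to 8.54 against 6.48 to 6.68, and CEACAM5 at 8.37 to 8.75 against 6.23 to 7.06. The summed level of that list was 17.2 in wild type and 16.8 to 16.9 in the resistant variants, with 5 of its genes lower in BR100 and in BR200 by the test used for the pathway lists. Fibroblasts and endothelium are rich in caveolins, and their markers were nearly absent. Of 9 fibroblast genes only COL1A1 passed the filter, with 7 of 9 within 0.05 of the lowest value throughout, and the summed level was 6.55 in wild type, 6.31 to 6.43 in BR100 and 6.43 in BR200. None of 8 endothelial genes and none of 4 adipocyte genes passed, with 4 of 8 and 4 of 4 within 0.05 of the lowest value and summed levels of 5.53 to 5.61 and 4.25 on every array. Of 4 blood cell genes on the array, PTPRC and CD3E were at the lowest value, and LYZ made up most of the summed level of 14.3 to 14.8. The fourth, CD14, was at 5.59 and 5.33 in wild type, 5.82 and 5.64 in BR100, and 6.76 and 6.27 in BR200, and was the gene of this list called higher in BR200.

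The CCN genes encode secreted matricellular proteins. CCN2, also known as CTGF, was measured by 1 probe set. Its log2 level was 6.97 (Express) and 6.53 (One-Cycle) in wild type, 2.94 on both arrays of BR100, and 6.13 and 6.12 in BR200. Both BR100 arrays lay near background, while BR200 lay close below wild type and did not overlap with it. The difference from wild type was −3.80 (SE 0.136) in BR100 and −0.63 (SE 0.136) in BR200, and BR200 stood 3.18 (SE 0.136) above BR100. A level under a log2 value of 4 is treated here as near background, so the size of the BR100 difference depends on the background estimate. The order of levels was wild type, BR200, BR100.

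CCN1, also known as CYR61, was at 8.87 and 8.75 in wild type, 8.16 and 7.47 in BR100, and 9.52 and 9.33 in BR200 (Express and One-Cycle). No variant overlapped with another, and the clones lay on opposite sides of wild type: BR100 at −0.99 (SE 0.162), BR200 at 0.62 (SE 0.162). BR200 was thus 1.61 (SE 0.162) above BR100, a 3.05-fold difference. The second CCN1 probe set gave 6.97 and 6.40 in wild type, 6.33 and 5.60 in BR100, and 7.46 and 7.43 in BR200. It had the same order, although its Express array of BR100 lay close to the One-Cycle array of wild type. Both CCN genes therefore had their lowest level in BR100 and differed in where BR200 stood.

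AMOTL2 encodes a motin, a junctional scaffold that binds YAP1. It was at 11.57 and 11.46 in wild type, 9.31 and 8.87 in BR100, and 9.46 and 8.91 in BR200. Both clones were below wild type by a similar amount, −2.43 (SE 0.126) in BR100 and −2.33 (SE 0.126) in BR200, a 5.37-fold and a 5.03-fold difference. The clones overlapped with each other. BR200 stood 0.10 (SE 0.126) above BR100, and −0.040 from it without the Express array of BR200. ANKRD1, a cardiac ankyrin repeat protein that YAP1 induces in many cells, stayed at the lowest value of 2.23 on 5 arrays and at 2.24 on the Express array of BR200. It was the 1 gene of the 10 that did not pass the filter, and no difference was detectable at that signal.

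**Figure D1:**
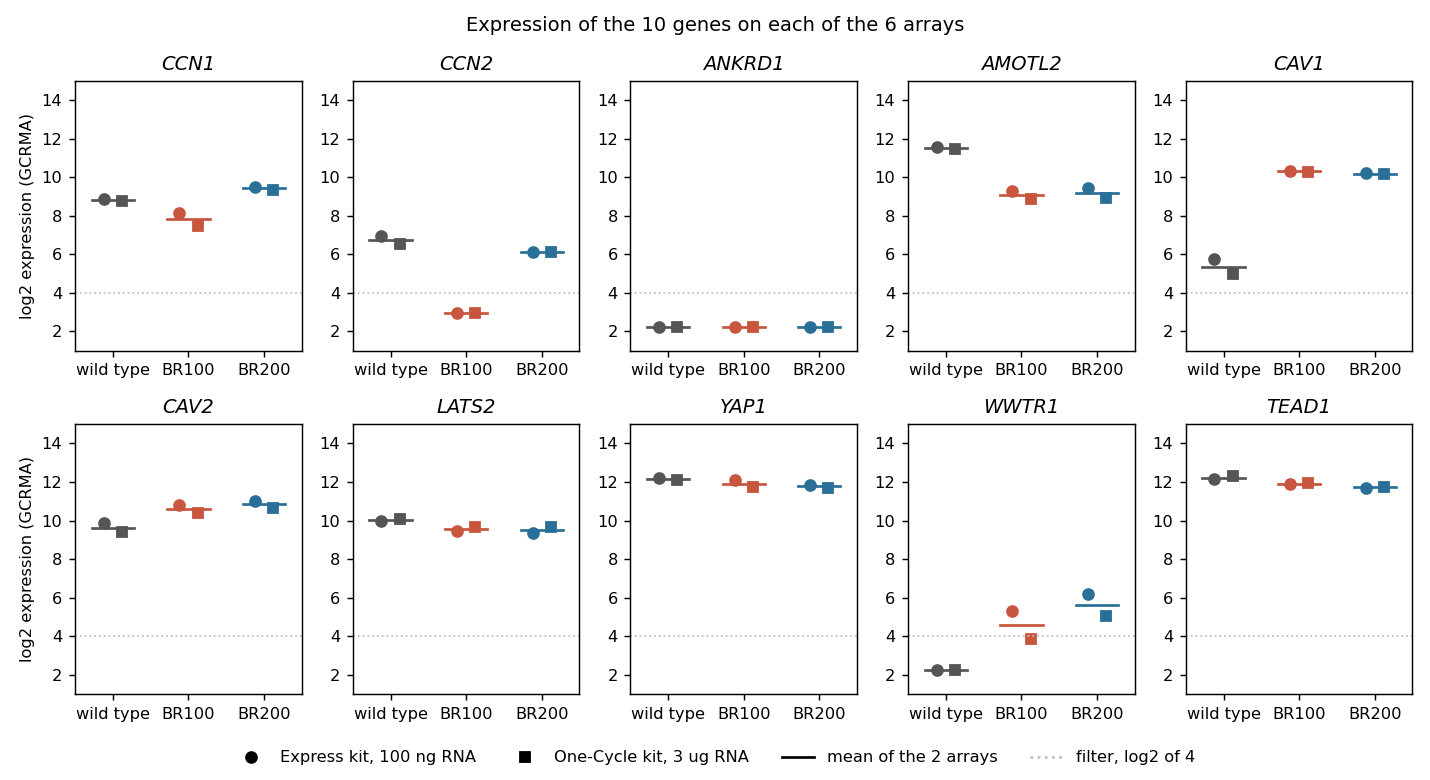
Log2 expression (GCRMA, y axis) of each of the 10 genes on the 6 arrays, by variant (x axis); circles are Express arrays, squares One-Cycle arrays, short lines the mean of the 2 arrays, and the dotted line marks the filter at log2 of 4. CCN2 is near background in BR100 alone, CAV1 is 4.94 and 4.83 log2 units higher in the clones, and ANKRD1 stays at the lowest value.

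TEAD factors bind the motif CATTCC, read as GGAATG on the other strand. The sequence before the start site is shown for 3 target genes and for CAV1. CCN2, ANKRD1 and AMOTL2 are readouts of TEAD activity and were shown because a window of each holds the motif. For AMOTL2 the window with the motif is printed, and its other window, without the motif, is not. CAV1 is shown beside them as a gene whose windows do not hold it. Windows came from RefSeq (GRCh38.p14) and ran from 250 bases before to 50 bases after a start site. They were matched for 8 of the 10 genes, all but CCN1 and TEAD1. The 250 bases before the start are printed 5′ to 3′ on the gene's strand, with the motif in capitals.
CCN2 (chr6:131951373-131951622, minus strand): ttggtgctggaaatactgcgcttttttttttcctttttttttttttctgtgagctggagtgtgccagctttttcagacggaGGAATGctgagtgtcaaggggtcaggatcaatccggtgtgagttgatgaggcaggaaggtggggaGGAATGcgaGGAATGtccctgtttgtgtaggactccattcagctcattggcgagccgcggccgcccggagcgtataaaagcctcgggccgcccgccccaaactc
ANKRD1 (chr10:90921088-90921337, minus strand): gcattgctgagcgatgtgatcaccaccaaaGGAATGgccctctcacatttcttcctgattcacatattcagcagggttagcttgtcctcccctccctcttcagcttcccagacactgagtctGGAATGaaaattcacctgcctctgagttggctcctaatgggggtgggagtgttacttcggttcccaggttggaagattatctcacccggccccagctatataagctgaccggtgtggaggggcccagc
AMOTL2, second start site (chr3:134374448-134374697, minus strand): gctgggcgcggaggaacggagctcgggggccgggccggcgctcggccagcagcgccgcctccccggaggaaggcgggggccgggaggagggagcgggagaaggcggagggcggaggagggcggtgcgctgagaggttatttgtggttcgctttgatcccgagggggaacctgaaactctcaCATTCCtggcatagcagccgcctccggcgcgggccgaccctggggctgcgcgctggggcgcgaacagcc
CAV1, first start site (chr7:116524759-116525008, plus strand): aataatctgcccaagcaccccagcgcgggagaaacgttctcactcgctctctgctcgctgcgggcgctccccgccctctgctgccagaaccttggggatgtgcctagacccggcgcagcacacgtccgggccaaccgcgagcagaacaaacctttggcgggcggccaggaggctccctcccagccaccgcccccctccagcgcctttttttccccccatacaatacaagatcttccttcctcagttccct

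CCN2 held 3 copies of the motif, beginning 169, 104 and 95 bases before its start, and ANKRD1 held 2, at 220 and 128 bases before. AMOTL2 had 1, at 69 bases before the second of its start sites, and no copy in the window of the first. YAP1 had 1 at 162 bases before its start, and LATS2 had 1 that began at base 10 of the transcript. No copy was found in the 3 windows of CAV1, the 2 of CAV2 or the 2 of WWTR1. In all, 5 of 13 windows of these genes held the motif on either strand, against 14.0% of 35116 windows of all genes in the table. The genes were chosen in part as known TEAD targets, and the first 2 windows of CAV1 overlap. Nothing is therefore read from that share. A copy of the letters is a description and not a bound site.

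The caveolins lie side by side on chromosome 7, CAV2 at 116499738 to 116508541 and CAV1 at 116525009 to 116561185 (GRCh38.p14). CAV1, the main structural protein of caveolae outside muscle, had a log2 level of 5.74 and 5.00 in wild type, 10.33 and 10.29 in BR100, and 10.21 and 10.18 in BR200. Both clones were far above wild type on both kits, by 4.94 (SE 0.205) in BR100 and 4.83 (SE 0.205) in BR200, which is 30.7-fold and 28.4-fold. Wild type was low but above the filter. The second CAV1 probe set read 4.63 and 3.95 in wild type, 9.67 and 8.71 in BR100, and 9.43 and 8.47 in BR200. Its differences from wild type, 4.76 to 5.04 in BR100 and 4.53 to 4.79 in BR200 by kit, were of the same size. Between the clones, CAV1 differed by −0.12 (Express) and −0.11 (One-Cycle) on the first probe set, where both BR200 arrays lay just below those of BR100, and by −0.25 and −0.23 on the second, where the clones overlapped. The fitted difference on the first was −0.11 (SE 0.205), and it was 0.060 without the One-Cycle array of BR100 and 0.063 without the Express array of BR200.

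CAV2, which forms heteromers with CAV1, was at 9.85 and 9.42 in wild type, 10.81 and 10.39 in BR100, and 10.99 and 10.68 in BR200. Both clones were above wild type, by 0.97 (SE 0.0701) and 1.20 (SE 0.0701), a 1.95-fold and a 2.29-fold difference. The size depended on the probe set. A second one gave 8.43 and 8.07 in wild type, 8.57 and 8.27 in BR100, and 8.90 and 8.58 in BR200, with differences of 0.14 and 0.20 in BR100, whose arrays overlapped with wild type, and of 0.47 and 0.51 in BR200. The last stayed at the lowest value on every array. The clones overlapped with each other on the first CAV2 probe set. The difference from wild type was thus far wider for CAV1 than for its neighbour CAV2.

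LATS2, the kinase that phosphorylates YAP1, was at 9.96 and 10.06 in wild type, 9.48 and 9.66 in BR100, and 9.36 and 9.65 in BR200. Both clones were slightly lower, by −0.44 (SE 0.078) and −0.50 (SE 0.078), without overlap with wild type. Of its 3 other probe sets, 1 showed a like difference, at −0.45 and −0.31 in BR100 and −0.49 and −0.61 in BR200. Another ran the other way near the filter, from 3.81 and 3.83 in wild type to 4.12 and 4.36 in BR200, and the last was near the lowest value throughout. The 2 that measured LATS2 well above background had the same direction.

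YAP1 and TEAD1, the coactivator and its DNA-binding partner, varied little. YAP1 was at 12.19 and 12.09 in wild type, 12.09 and 11.72 in BR100, and 11.86 and 11.71 in BR200. BR100 overlapped with wild type, and BR200 lay below it, at −0.23 (SE 0.0944) and −0.36 (SE 0.0944). The other YAP1 probe sets gave −0.11 to −0.34 in BR100 and −0.26 to −0.61 in BR200. TEAD1 was at 12.14 and 12.30 in wild type, 11.88 and 11.93 in BR100, and 11.68 and 11.76 in BR200, in steps of −0.32 (SE 0.0688) and −0.50 (SE 0.0688) from wild type. On this probe set the order wild type, BR100, BR200 held without overlap, whereas on its other probe sets the variants overlapped.

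WWTR1 differed from its paralogue YAP1. Its log2 level was 2.23 on both wild type arrays, the lowest value, 5.33 and 3.85 in BR100, and 6.19 and 5.05 in BR200. Both clones were above wild type, by 2.36 (SE 0.378) and 3.39 (SE 0.378), on a scale where wild type has no measured level, and the clones overlapped with each other. WWTR1 passed the filter through the resistant variants only. Its other probe sets stayed between 2.23 and 2.95 on every array, so the difference rests on 1 of 3 probe sets.

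**Figure D2:**
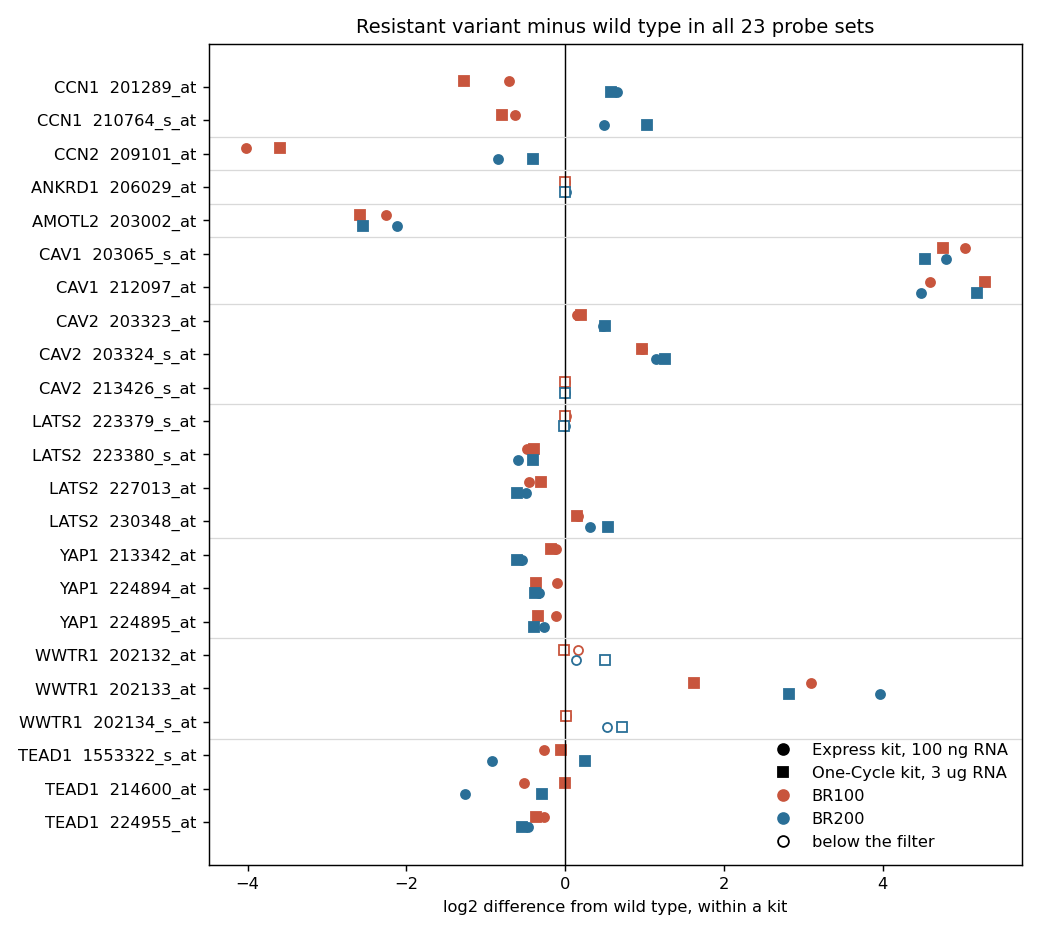
Log2 difference from wild type within a labelling kit (x axis) for all 23 probe sets of the 10 genes (y axis), with circles for Express, squares for One-Cycle, colours for BR100 and BR200, and open symbols for probe sets below the filter. Both CAV1 probe sets lie between 4.47 and 5.29, the probe sets of CAV2, LATS2 and WWTR1 disagree in size or direction, and those of CCN1 place the clones on opposite sides of 0.

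Over all 10 genes the median difference was −0.28 in BR100 and −0.18 in BR200 against wild type. Over the 9 of them past the filter, without ANKRD1, it was −0.32 and −0.36. All 10370 genes past the filter had a median of 0.04 in either comparison. The range was −3.80 to 4.94 in BR100 and −2.33 to 4.83 in BR200. In BR100, 3 genes lay above both wild type arrays and 5 below, where 72.1% of all genes past the filter did not overlap with wild type (38.3% above, 33.8% below). In BR200, 4 lay above and 5 below, beside 69.5% of all genes (36.7% above, 32.8% below). Between BR200 and BR100, 2 lay above and 2 below, beside 37.1% (18.3% above, 18.8% below). Since the genes were chosen with these comparisons known, nothing is read from the counts. The 2 comparisons with wild type share their wild type arrays.

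**Figure D3:**
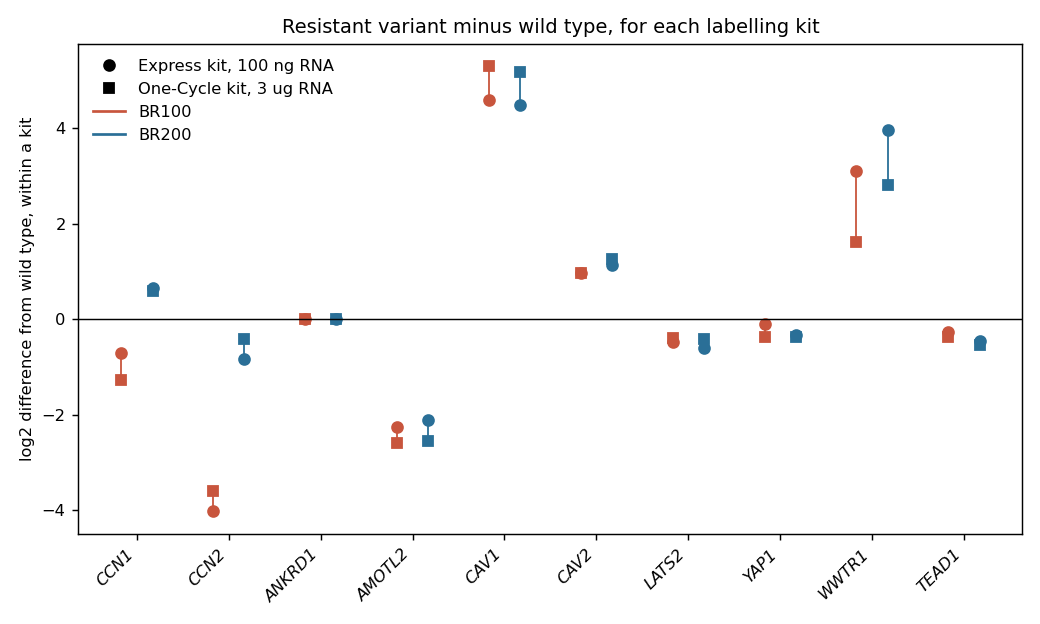
Log2 difference of BR100 and BR200 from wild type within each labelling kit (y axis) for the 10 genes (x axis); a line joins the Express (circle) and One-Cycle (square) values. The kits gave the same sign for each of the 9 genes past the filter, and differed most for WWTR1, at 3.09 against 1.62 in BR100.

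The labelling kit was compared within the variants with limma over all genes (Benjamini-Hochberg adjustment). The kit comparison called 1 of the 9 genes past the filter, beside 34.0% of all 10370 genes. CAV2 was 0.39 (SE 0.0572) higher with Express than with One-Cycle, at 0.43, 0.42 and 0.32 in the 3 variants (adjusted p = 0.0136, higher in 3 of 3). Without any 1 array of BR100 or BR200, limma called none of the 9, with 1 at an unadjusted p under 0.05 each time, and without either wild type array it called 2. The other 8 genes had differences of −0.19 to 0.87 with adjusted p of 0.0577 to 0.340. When each probe set was tested on its own, 5 of the 18 probe sets past the filter were called, beside 35.2% of 19055. The highest was the second TEAD1 probe set, at 1.75 (SE 0.203, adjusted p = 0.00883), with 8.71 against 6.47 in wild type. The second CAV1 probe set was at 0.87, the first and second CAV2 probe sets at 0.39 and 0.33, and 1 of the 3 YAP1 probe sets, with levels of 8.93 to 9.80, was lower with Express, at −0.28.

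**Figure D4:**
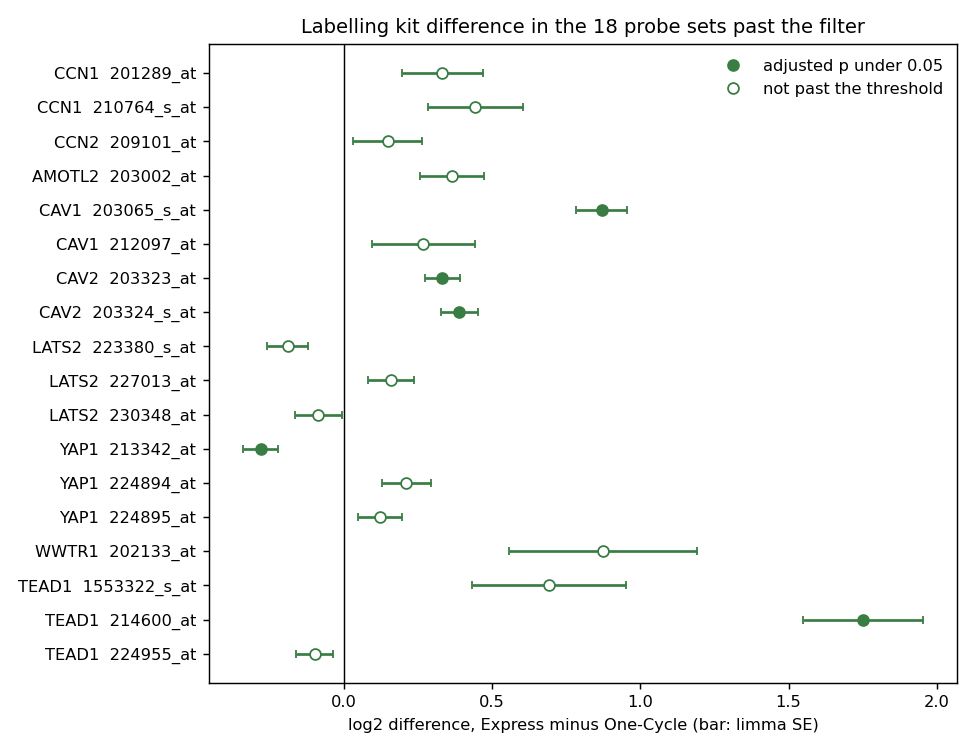
Log2 difference between Express and One-Cycle arrays (x axis, points with limma SE as bars) for the 18 probe sets past the filter (y axis); filled points passed an adjusted p of 0.05. A TEAD1 probe set stands highest at 1.75, and a YAP1 probe set is the called one that is lower with Express, at −0.28.

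Other genes of the pathway were taken from lists and tested with limma over all 10370 genes, with kit as a block. The lists too were chosen with earlier results of these data known, so their calls and counts are no independent support. Among 17 further genes of a published YAP/TAZ target signature, 12 could be tested. In BR100, 8 fell and 2 rose, with a median of −0.91, and in BR200 7 fell and 2 rose, with a median of −0.62. Over all genes 31.8% fell and 36.7% rose in BR100, 68.5% in all, and 31.2% and 35.4% in BR200, 66.5% in all. AXL, a receptor tyrosine kinase, fell by 1.35 (SE 0.141, adjusted p = 0.00155) in BR100 and by 1.75 in BR200. TGFB2, a growth factor, fell by 1.43 in BR100, or by 0.36 with its probe sets averaged. In BR200 it was at −0.73, a call lost without the filter (adjusted p = 0.0815) or with averaged probe sets (adjusted p = 0.13). F3, which encodes tissue factor, fell by 1.28 and 0.77. NT5E, an ecto-nucleotidase, fell by 1.13 in BR100 and 1.16 in BR200, and PTPN14, a phosphatase that binds YAP1, by 1.19 and 1.56. FJX1 rose by 1.32 in BR100, and that call was lost without the filter (adjusted p = 0.0637), as was that of F3 in BR200 (adjusted p = 0.075). FJX1 was at 0.74 in BR200, a call lost without the filter (adjusted p = 0.17) or without the kit block (adjusted p = 0.125).

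In a second list of reported YAP/TEAD targets, all 5 tested genes rose in BR100 (median 0.94) and in BR200 (median 1.41), beside 36.7% and 35.4% of all genes. The call of THBS1 in BR100, at 0.50 (adjusted p = 0.0466), was lost without the kit block (adjusted p = 0.621), without the filter (0.266), with averaged probe sets (0.16) or centred arrays (0.0577), and with any 1 array but the One-Cycle array of BR100 left out (0.0779 to 0.241). DKK1, a secreted Wnt inhibitor, was at 8.73 and 8.68 in wild type, 12.26 and 12.11 in BR100, and 12.04 and 11.78 in BR200, a rise of 3.48 (SE 0.0798, adjusted p = 7.6e-05) and 3.20. EDN1, the endothelin precursor, rose by 2.20 and 2.21. BIRC5, also known as survivin, rose by 0.94 and 0.63, SHCBP1 by 0.70 and 0.55, and THBS1, a matricellular glycoprotein, by 1.41 in BR200. In BR200, BIRC5 was at 0.04 without probe sets marked _x_at or _s_at, and THBS1 was not called without the kit block (adjusted p = 0.188) or without the filter (adjusted p = 0.0506). BIRC5 and SHCBP1 are also cell cycle genes.

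Of 23 tested genes of the Hippo core and its upstream regulators, 7 rose and 11 fell in BR100 (median −0.24) and 7 rose and 8 fell in BR200 (median −0.05). The 18 and 15 genes called are a share near that of all genes, 68.5% and 66.5%. FRMD6, a FERM domain protein upstream of the kinases, rose by 3.44 (SE 0.278, adjusted p = 0.000751) in BR100 and by 2.77 in BR200, from 3.43 and 4.47 in wild type, on either side of the background limit. It passed the filter only with the help of its resistant arrays, so a rise was favoured in advance. VGLL1, a TEAD cofactor, rose by 1.43 and 1.60, calls that were lost without the filter (adjusted p = 0.0706 and 0.0615). AJUBA, a LIM protein that binds LATS kinases, fell by 1.43 in BR100 and 1.23 in BR200. STK3, the kinase MST2, fell by 1.25 in BR200. In BR100 STK3 was at −0.60, a call lost without the kit block (adjusted p = 0.134) and with probe sets averaged, where it stood at 0.015. Of the 4 paralogues of the 10 genes that could be tested, TEAD4 rose by 1.30 in BR100 and 0.65 in BR200, and TEAD2 rose by 0.84 and 1.06, although in BR100 that call was lost without the kit block (adjusted p = 0.0624) and with probe sets averaged (adjusted p = 0.0598). LATS1 fell by 0.65 and 0.63, calls that were lost without the kit block (adjusted p = 0.241 and 0.257) and with probe sets averaged, where it stood at −0.18 and 0.01. Besides TEAD1, which was slightly lower, TEAD2 and TEAD4 were thus higher in both clones. The other paralogues on the array, 9 of 13, were below the filter, among them CCN3, CCN4, CCN5, CCN6, CAV3, AMOT and AMOTL1.

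Other genes of the caveola coat and neck were tested as a list. Of 6 tested, none rose and 1 fell in BR100 (median 0.01), and 1 rose and 4 fell in BR200 (median −0.29), beside 35.4% and 31.2% of all genes in BR200. CAVIN1, the coat protein that caveolae require, was at 9.85 and 9.74 in wild type, 9.77 and 9.69 in BR100, and 9.51 and 9.57 in BR200. It fell by 0.26 in BR200 (adjusted p = 0.0397), by 0.34 with Express and 0.17 with One-Cycle. CAVIN1 is named for its role and not by rank, and its call was not checked under the alternatives. CAVIN2, a second coat protein, was near background in wild type (2.36 and 2.23) and in BR100 (2.94 and 2.92) and at 6.49 and 5.52 in BR200. It is the gene of this list counted as risen in BR200. It passed the filter through its BR200 arrays only, so that it had to differ, and its fitted differences of 3.71 from wild type and 3.08 from BR100 depend on the background estimate. PACSIN2, which shapes the caveola neck, fell by 0.78 and 0.69, but was at −0.04 and −0.08 without probe sets marked _x_at or _s_at. EHD2 and EHD1, neck ATPases, fell by 0.35 and 0.32 in BR200, calls lost without the kit block (adjusted p = 0.25 and 0.163). They were also lost without either BR200 array (adjusted p = 0.0606 and 0.0696 for EHD2, 0.0932 and 0.132 for EHD1), and that of EHD1 without either wild type array too (adjusted p = 0.102 and 0.0537). EHD1 was not called without the filter (adjusted p = 0.0861), nor EHD2 with its probe sets averaged (adjusted p = 0.245).

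CCN1 and CCN2 also respond to SRF, the actin-regulated transcription factor. Of 14 tested SRF and actin genes, 6 rose and 4 fell in BR100 (median 0.06) and 7 rose and 2 fell in BR200 (median 0.24). The 10 and 9 genes called are again near the share of all genes. VCL, or vinculin, rose by 1.35 and 1.51. TPM2, a tropomyosin, fell by 2.39 and 1.76, but was at −0.43 in both without probe sets marked _x_at or _s_at. ZYX, or zyxin, fell by 1.60 and 1.29, and ACTA2, smooth muscle actin, rose by 1.02 and 1.13. At 3.82 and 4.69 in wild type, ACTA2 passed the filter only with the help of its resistant arrays, so a rise was favoured in advance. ZYX in both clones and TPM2 and ACTA2 in BR200 were not called without the kit block (adjusted p = 0.322, 0.429, 0.064 and 0.164). Without that block ACTA2 was not called in BR100 either (adjusted p = 0.193). TAGLN, or transgelin, fell by 1.10 in BR100, from 4.02 and 4.16 to near background.

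**Figure D5:**
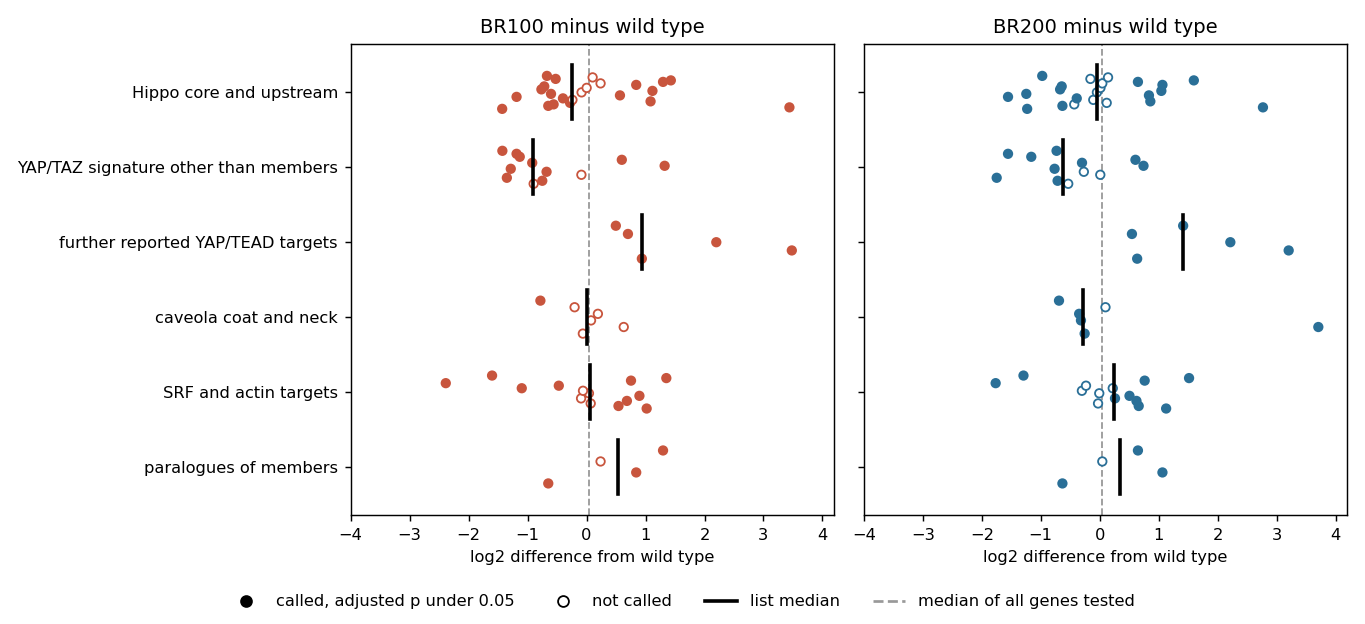
Log2 difference from wild type (x axis) of the tested genes of 6 pathway lists (y axis) in BR100 and BR200; filled points were called at an adjusted p under 0.05, black bars are list medians and the dashed line is the median of all genes. The further signature genes lie mostly below 0, with medians of −0.91 and −0.62, and the 5 further reported targets all lie above it.

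Between the clones, limma called 1102 of 10370 genes (10.6%), 663 higher (6.39%) and 439 lower (4.23%) in BR200, and 10 of 59 pathway genes, 7 higher and 3 lower. Those named by rank were CAVIN2 (3.08, against a background level in BR100), TAGLN (1.32), THBS1 (0.92), TGFB2 (0.70), GADD45A (0.62) and MAP4K4 (0.40) on the higher side, and TEAD4 (−0.65), EHD2 (−0.54) and MRTFA (−0.39) on the lower side. Without any 1 of the 4 arrays of BR100 and BR200, limma called none of the 10370 genes, with 1947 to 2141 at an unadjusted p under 0.05, and without either wild type array it called 253 or 251 genes and 1 pathway gene. Without the filter no pathway gene was called, with 20 at an unadjusted p under 0.05. The CCN2 and CCN1 differences between the clones, described above, were 3.07 to 3.29 and 1.34 to 1.88 with any 1 array left out.

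The genes whose profile over the 6 arrays was nearest to that of 4 of the 10 genes were found by Euclidean distance after each kit's mean was removed, among 10369 others. CCN1 was nearest to OSR2 (distance 0.30), DUSP1 (0.36) and ANKRD37 (0.40), against a median distance of 1.85. DUSP1, a phosphatase of MAP kinases, was at 11.37 and 11.16 in wild type, 10.23 and 10.07 in BR100, and 11.94 on both arrays of BR200. CCN2 was nearest to TNC (0.78), VNN1 (0.88) and IFI35 (0.90), with a median of 4.15. CAV1 was nearest to FILIP1L (0.30), RNASEH2A (0.34) and PIR (0.44), with a median of 5.61, and YAP1 to BTF3L4 (0.06), BPTF (0.07) and OSTC (0.07), with a median of 0.81.

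Neighbours on the chromosome were taken as the 10 genes past the filter on either side. Of all genes, 36.7% rose and 31.8% fell in BR100, and 35.4% rose and 31.2% fell in BR200. CAV2 and CAV1 lie between TES, which fell by 1.64 in BR100 and 1.48 in BR200, and MET, the hepatocyte growth factor receptor gene, which fell by 0.78 and 0.70. TES and MET thus moved opposite to the caveolins. Of the 20 neighbours of CAV1, among them CAV2, 8 rose and 9 fell in BR100, and 6 rose and 10 fell in BR200. AMOTL2 lies between RYK, which fell by 0.61 and 0.64, and ANAPC13, which fell by 0.47 and 0.60. Of the 20 neighbours of AMOTL2 on chromosome 3, 4 rose and 11 fell in BR100, and 4 rose and 12 fell in BR200. WWTR1, also on chromosome 3, lies between TM4SF4, which fell by 10.38 in BR100 and 10.39 in BR200, and COMMD2, which rose by 0.33 and 0.36. The falls of TM4SF4 were the widest of all 10370 genes past the filter. How far their size depends on the background estimate was not tested. For CCN2 on chromosome 6, 7 of 20 neighbours rose and 8 fell in BR100, and 10 rose and 7 fell in BR200. In BR100, MED23 on one side of CCN2 was at −0.04 (adjusted p = 0.752) and STX7 on the other at −0.43 (adjusted p = 0.038). YAP1 lies between BIRC2, which fell by 0.91 and 0.84, and CFAP300, which was at 0.27 and 0.47 and was called in BR200 only (adjusted p = 0.0116). Of the 20 neighbours of YAP1, 5 rose and 10 fell in BR100, and 5 rose and 10 fell in BR200. TEAD1, elsewhere on chromosome 11, had 11 of 20 neighbours lower in BR100 and 16 of 20 in BR200, beside 31.8% and 31.2% of all genes.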

How the data were processed

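The deposited log2 values, per probe set, came from GCRMA per the submitters' processing notes, a method that corrects background, normalizes between arrays and summarizes probes; its version and detection calls were not given in the sources used here. The lowest value, 2.23, was shared by all 6 arrays and held by 34.8% to 35.3% of probe sets. Precision is limited by having 6 arrays.

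Gene names came from the array's annotation table, checked by gene identifier against RefSeq (GRCh38.p14): of 41043 probe sets matched, none differed in symbol. Of all probe sets, 41097 carried 1 gene name; 1801 with more and 11777 without were left out. The probe set with the highest mean stood for a gene, and genes were kept where at least 2 arrays reached a log2 value of 4 (10370 of 19775 genes). Comparisons came from 1 model over 6 arrays with terms for variant and labelling kit, in limma 3.58.1 (lmFit, eBayes) and R 4.3.3, two-sided, called at a Benjamini-Hochberg adjusted p under 0.05. It had 2 residual degrees of freedom and 2.33 prior ones. Errors are limma's standard errors (SE). Where array values are given in pairs, the first is Express and the second One-Cycle. With 2 arrays per variant, p-values measure only the spread between these arrays, which may be technical.

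The kit block pairs the arrays: the labels give each variant 1 array per kit, and deviations from the variant means correlated at r = 0.762 to 0.845 between arrays of the same kit. The model was tested on simulated data. The 10 genes and all lists were chosen with earlier results of these data known. Named beside them are up to 4 called genes of each list with the largest change per comparison with wild type. Between the clones, up to 2 per list are named. Also named are the 3 nearest profiles of CCN1, CCN2, CAV1 and YAP1, and examples of chromosomal neighbours within 1 place. CAVIN1 is named outside this rule, and the alternatives below were not run for it. Alternatives were no kit block, no filter or a filter at log2 of 5, averaged probe sets, no _x_at or _s_at probe sets, median-centred arrays, a trended prior and each array left out; the kit test on single probe sets was chosen after seeing the data.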

Additional observations from a re-analysis of the deposited data

Results flagged for a closer look

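For some genes the within-kit differences of BR100 from wild type had one sign on both kits and those of BR200 the other. The arrays of EHD2 in BR100 and of MAP4K4 in BR200 still overlapped with those of wild type. CCN1 was below wild type in BR100, at −0.71 (Express) and −1.28 (One-Cycle), and above it in BR200, at 0.65 and 0.58; this difference was not tested, since the gene was chosen with the comparison known. TAGLN was at −0.98 and −1.21 in BR100 and at 0.19 and 0.25 in BR200. MAP4K4, a kinase upstream of LATS1 and LATS2, was at −0.27 and −0.29 in BR100 and at 0.15 and 0.083 in BR200. EHD2 was at 0.19 on both kits in BR100 and at −0.34 and −0.36 in BR200. The clone differences of TAGLN, MAP4K4 and EHD2 were called by limma with all 6 arrays (adjusted p = 0.00871, 0.0396 and 0.0225), and none was called when any 1 array of BR100 or BR200 was left out, where 16 to 19 pathway genes had an unadjusted p under 0.05. EHD1 differed in sign between the kits in BR100, at −0.013 with Express and 0.16 with One-Cycle, which was not tested. Against wild type, limma did not call TAGLN in BR200 (adjusted p = 0.106), MAP4K4 in BR200 (0.182) or EHD2 in BR100 (0.0521), so opposite changes were not shown. MAP4K4 in BR100 was at 0.067 with averaged probe sets and 0.55 without _x_at and _s_at probe sets. No group held enough arrays for a test of single outlying arrays.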

How the results depend on the processing

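Of the values of the 10 genes under the alternatives, 338 moved by no more than the spread between their Express and One-Cycle differences, and 52 by more. Many of the 338 could not move. Dropping the kit block or the filter, the stricter filter and the trended prior leave these differences as they are. So does leaving out an array of the variant that is not compared. For the 9 genes past the filter, 0 differences from wild type changed sign. Between the clones 5 did: CAV1 was at 0.060 and 0.063 and AMOTL2 at −0.040 with 1 array left out, and LATS2 at 0.0053 with 1 array left out and 0.0052 with averaged probe sets. For the pathway genes, 969 of the values under alternatives kept direction and call, 138 lost the call, 17 gained it and 4 changed sign. STK3 stood at 0.015 and MAP4K4 at 0.067 in BR100 with probe sets averaged, and LATS1 at 0.0087 in BR200; MAP4K4 stood at 0.55 in BR100 without _x_at and _s_at probe sets. Other probe sets of these genes enter those values; the cause was not tested further.

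Without the replicate block for kit, limma called 4387 genes in BR100, 4100 in BR200 and 112 between the clones, and 24, 24 and 2 pathway genes; the kit contrast has no value there. Without the filter, 15 genes and 0 pathway genes (20 at an unadjusted p under 0.05) were called between the clones, and 468 genes and 0 of the 10 (2 at an unadjusted p under 0.05) between kits. The kit calls among the 10 genes were 2 with the stricter filter, 4 with averaged probe sets, 2 with centred arrays, 3 with a trended prior and 5 by single probe sets. The BR200 median was −0.077 with averaged probe sets and −0.22 with centred arrays. Without _x_at and _s_at probe sets, 27 pathway genes were called in BR100 and 5 between the clones. The trended prior called 1745 genes and 17 pathway genes between the clones.

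With 1 array left out, limma called 5549 to 6616 genes in BR100, 5160 to 6466 in BR200, 0 to 253 between the clones (1947 to 3314 at an unadjusted p under 0.05) and 452 to 2233 between kits. Medians of the 10 genes ran from −0.36 to −0.20, −0.20 to −0.14 and 0.034 to 0.093, and kit calls among them from 0 to 2 (1 to 4 at an unadjusted p under 0.05). Pathway calls ran from 37 to 41, 34 to 39 and 0 to 1 (16 to 27 at an unadjusted p under 0.05). WWTR1 ranged from 1.70 to 3.01 in BR100 and CCN2 from −0.84 to −0.41 in BR200. Differences of genes near background, such as CCN2 in BR100 and WWTR1 in wild type, are limited by signal.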
